A study of Mus musculus with 2 samples.

Results

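The cyclins, cyclin-dependent kinases (CDKs), E2F factors, RB proteins and their direct regulators were examined as 46 named genes, found by matching the gene name of every non-control probe on each array. They were measured by 70 probes, out of 55681 non-control probes that stand for 22221 named genes. The 2 samples were total RNA from P5424, a mouse T-cell line, and form 1 group. Both carry the knockout of Rag2 and of P53 (gene symbol Trp53), received no treatment, and were grown in RPMI1640 with serum and 2-mercaptoethanol. They are called replicate 1 and replicate 2. Whether they come from separate cultures is not stated in the labels, and their spread may therefore be technical.

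Cyclins are regulatory subunits that switch on their CDK partners, and many of them rise and fall through the cell cycle. D-type cyclins with CDK4 or CDK6 act in G1, E-type cyclins with CDK2 at the entry into S phase, A-type cyclins in S and G2, and B-type cyclins with CDK1 in mitosis. RB proteins hold E2F factors in check until these kinases phosphorylate them, after which E2F factors with a DP partner drive genes of DNA replication and of the next cyclins. In the thymus, cyclin D3 is the D-type cyclin known for its role in the expansion of immature T cells.

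Of the 46 genes, 40 were detected (87.0%), where 51.7% of all named genes on the array were. Detected means that at least 1 probe of the gene was marked well above background by the scanner software on both arrays. Among the D-, E- and A-type cyclins, 1 paralogue of each family was not well above background on either array: Ccnd2, Ccne2 and Ccna1. Cdk14 was also missing on both, E2f4 was well above background on replicate 1 alone and E2f5 on replicate 2 alone. Both B-type cyclins, the 3 CDC25 phosphatases, the 3 RB-family genes, both DP partners and the 3 activating E2F genes were detected. Genes with more probes have more chances to be detected, and 23 of the 28 members with 1 probe were (82.1%), beside 45.1% of all genes with 1 probe. Each array measured a pool of cells, so fewer cells in a phase and less RNA per cell cannot be told apart.

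Values are log2 signals relative to the array's 75th percentile, given as mean ± SD with n = 2, and signals are processed intensities on replicate 1 and then replicate 2. The brightness of a probe also depends on its sequence, so levels of single probes or genes are not ranked against each other, and sums and medians over lists are given as descriptions. The arrays were alike in overall brightness, with a 75th percentile of 324 and 299 intensity units and 42.5% and 41.2% of probes well above background. The 308 negative control spots had a median of 6.55 and 7.50. The highest control was 15.1 on replicate 1 and 101 on replicate 2, where the next highest was 17.6. Labelled as a T-cell line, the samples had 15 of 15 T-lineage markers detected, beside 3 of 8 B-cell, 4 of 8 myeloid, 2 of 9 stromal and epithelial and 2 of 3 erythroid markers. The summed signal of the T-lineage markers was 750172 and 641180, that of the B-cell markers 932 and 836, of the myeloid markers 6603 and 7277, of the stromal and epithelial markers 2108 and 2122 and of the erythroid markers 298 and 289. The detected genes of other lineages were Cd79a, Blnk, Cd22, Csf1r, Itgam, Cd14, Elane, Pecam1, Pdgfrb, Gata1 and Klf1, with Itgam at 4.40 ± 0.17. Pax5, Lyz2, Spi1, Col1a1, Epcam and Hba-a1 were not well above background, and the part of other cell types in the results was not tested. The Trp53 probe read 746 and 996 units, and the brighter of the Rag2 probes 2132 and 2086. Which part of each gene was deleted is not stated in the labels, so these probes check nothing about the knockouts.

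Cdk1 had probes that disagreed in detection although they overlap, and their letters are shown for that reason. Both lie on the minus strand of chromosome 10 (build mm9), one at chr10:68801072-68801131 and the other at chr10:68801053-68801112. They are 60 bases long, shifted by 19 bases, and share 41. The end of each that the other lacks is shown 5′ to 3′, with the 19 unshared bases in capitals.
Cdk1 probe from transcript base 1111, its bases 1 to 30: TTCTTAATTTCCTACGTATaacttaattaa
Cdk1 probe from transcript base 1130, its bases 31 to 60: atgaatttaaaTATAATTCTGTATATGTGC

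The probe that starts at base 1111 was detected, with signals of 1241 and 817 (1.69 ± 0.34). The probe that starts 19 bases further on read 6.58 and 7.54, which is at the level of the median negative control, and was not well above background. Another Cdk1 probe, at base 2670 (chr10:68799513-68799572), was detected with signals of 67.3 and 54.9 (-2.36 ± 0.12), but on replicate 2 it lay below the highest negative control. Cdk1 encodes the kinase of mitotic entry, and it counts as detected because 1 probe suffices. Both overlapping probes hold 18.3% G and C, and of the 84 probes on the array with that content or less, 3.57% were detected. The part of base composition in these calls was not tested.

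In G1, 4 of the 5 genes for D-type cyclins and their kinases were detected. Ccnd3, which encodes cyclin D3, had 2 probes on chromosome 17. One (chr17:47736579-47736638) had signals of 89330 and 79117 (8.08 ± 0.04), and the other (chr17:47736267-47736326) 49494 and 46084 (7.26 ± 0.01). Both arrays gave nearly the same value for each. Ccnd1, which encodes cyclin D1, was detected with its single probe (chr7:152116202-152116261) at 732 and 546 (1.02 ± 0.22). Ccnd2, which encodes cyclin D2, read 19.4 and 8.32 with its single probe (chr6:127098696-127098755) and was not well above background on either array. The Ccnd2 probe starts at base 609 of the transcript and holds 51.7% G and C. It was marked positive and significant on replicate 1 alone.

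The kinases that pair with D-type cyclins were both detected. Cdk4 was detected with all 3 of its probes on chromosome 10. They read 20890 and 21017 (6.07 ± 0.09, base 861), 28193 and 26570 (6.46 ± 0.02, base 1181), and 44889 and 40503 (7.10 ± 0.02, base 1286). The kinase gene Cdk6, with a single probe at chr5:3522106-3522165, read 196 and 122 (-1.01 ± 0.39). Replicate 1 was the higher array for Cdk6, with a difference of replicate 2 minus replicate 1 of -0.56 on the log2 scale.

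At the G1/S transition, 6 of 7 genes were detected. Ccne1, which encodes cyclin E1, was detected with both probes, at 286 and 273 (-0.15 ± 0.04, base 741) and at 5086 and 5234 (4.05 ± 0.11, base 1874). For the second of these the files give coordinates of 24 bases only (chr7:38882937-38882960). Ccne2, which encodes cyclin E2, read 5.71 and 6.13 and was not well above background. Its single probe (chr4:11131423-11131482) has 15.0% G and C, the lowest of all member probes, and of the 153 probes on the array with at most 20% G and C only 3.27% were detected. The part of base composition in this call was not tested.

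Cdk2, the kinase partner of E-type cyclins, was detected at 884 and 1029 (1.62 ± 0.24), and Cdc25a, the phosphatase that activates it, at 7598 and 6833 (4.53 ± 0.02). Skp2, which targets the inhibitor p27 for degradation, read 2325 and 2215 (2.87 ± 0.03). Its cofactor Cks1b had 2 probes, at 27307 and 23047 (6.33 ± 0.09) and at 29097 and 24043 (6.41 ± 0.11). Cks2, the paralogue of Cks1b that also binds CDKs, read 1213 and 1094 (1.89 ± 0.02). Both CKS paralogues were thus detected, as were cyclin E1 and CDK2, while cyclin E2 was not.

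In S, G2 and M, 9 of 10 genes were detected. Ccna2, which encodes the cyclin A of dividing somatic cells, read 20790 and 16737 (5.91 ± 0.14, chr3:36463978-36464037). Its paralogue Ccna1, known for its role in male meiosis, was printed 10 times on each array and none of these spots was well above background. The Ccna1 spots ranged from 5.85 to 8.40 with a median of 6.61 on replicate 1, and from 6.30 to 8.22 with a median of 7.25 on replicate 2. These medians are at the level of the negative controls. The Ccna1 probe spans 1145 genomic bases (chr3:54851197-54852341) for 60 letters, so its letters are not contiguous in the genome.

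**Figure D1:**
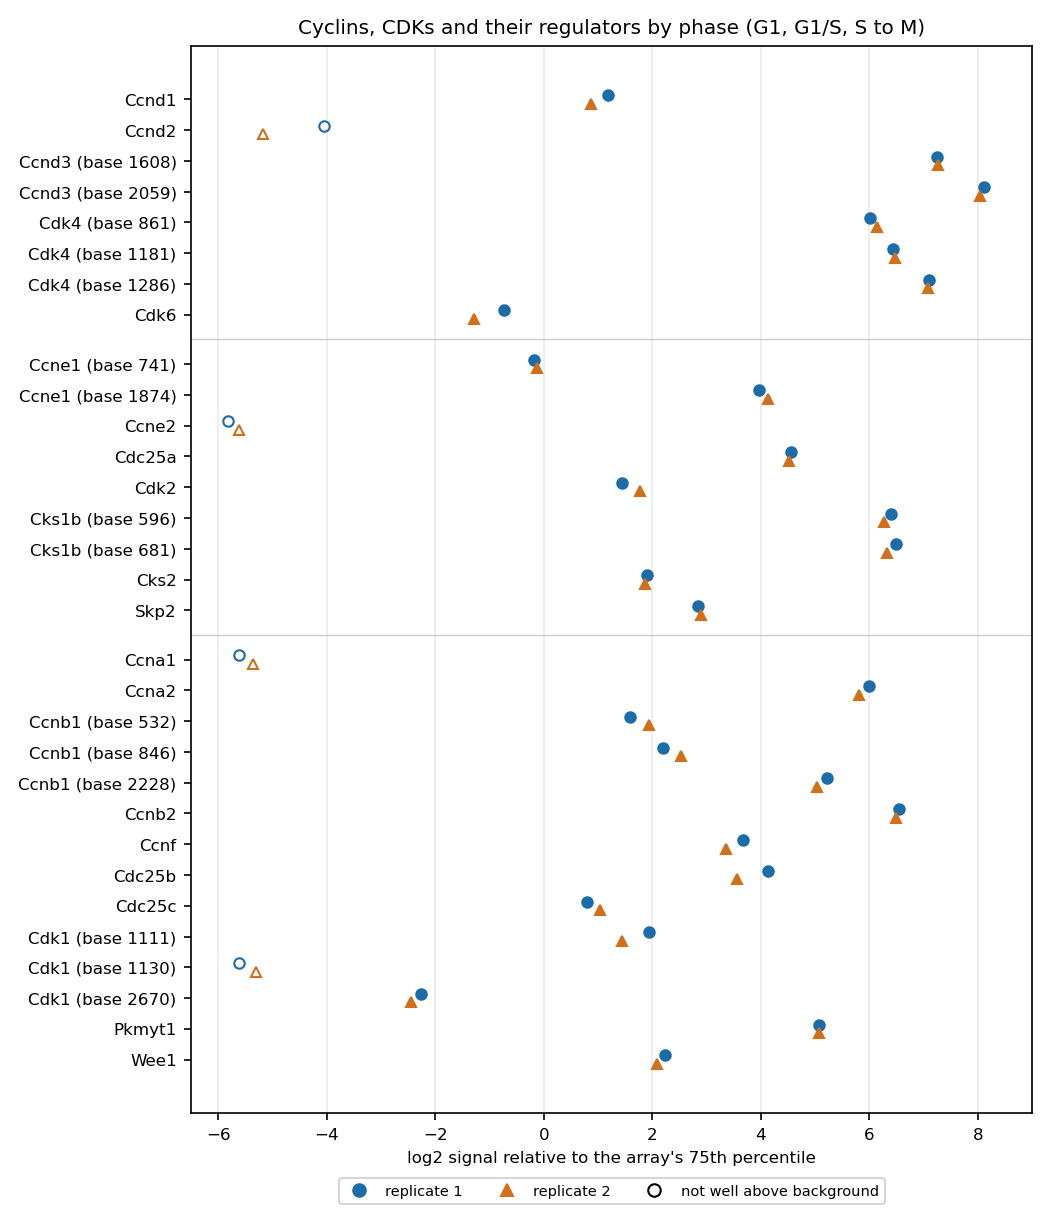
Log2 signal of each probe relative to the array's 75th percentile (horizontal axis) for the G1, G1/S and S to M genes (3 blocks from top to bottom), with a circle for replicate 1 and a triangle for replicate 2; the base in brackets is where a probe starts on its transcript. Open symbols are not well above background: Ccnd2, Ccne2 and Ccna1 are open on both arrays, and Cdk1 has 1 open probe beside 2 filled ones.

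Both B-type cyclins were detected. Ccnb2 read 30337 and 27054 (6.52 ± 0.03, chr9:70255671-70255730). Ccnb1 had 3 probes, at 974 and 1147 (1.76 ± 0.25, base 532), 1481 and 1731 (2.36 ± 0.24, base 846), and 12057 and 9763 (5.12 ± 0.13, base 2228). The arrays differed in opposite directions over Ccnb1: replicate 2 was higher by 0.35 and 0.34 on the log2 scale for the probes at bases 532 and 846, and lower for the probe at base 2228 (-0.19). Ccnf, a cyclin that serves as a ubiquitin ligase subunit, read 4151 and 3055 (3.52 ± 0.23).

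The regulators of CDK1 were all detected. Wee1, a kinase that inhibits CDK1, read 1525 and 1267 (2.16 ± 0.10), and Pkmyt1, its membrane-bound counterpart, 10946 and 10075 (5.08 ± 0.00). The opposing phosphatases were detected as well, with Cdc25b at 5686 and 3554 (3.85 ± 0.40) and Cdc25c at 562 and 612 (0.91 ± 0.17). Cdc25b had the largest spread between the arrays of any detected member, and the higher reading was on replicate 1.

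All 3 activating E2F genes were detected. E2f1 read 8299 and 7916 (4.70 ± 0.04, chr2:154385798-154385857) and E2f2 13699 and 13193 (5.43 ± 0.05, chr4:135750562-135750621). E2f3 had 2 probes, at 362 and 315 (0.12 ± 0.06, base 1214) and at 2909 and 2289 (3.05 ± 0.16, base 5001). The E2f3 probe at base 1214 spans 3387 genomic bases, so that it too joins separate stretches of the gene. For E2f1 and E2f2 the arrays were within 0.06 of each other on the log2 scale.

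Among the E2F genes classed as repressors, the arrays disagreed on 2 of 3. The E2f4 probe (chr8:107829156-107829215) read 46.8 on replicate 1, where it was well above background, and 9.47 on replicate 2, where it was not. The E2f5 probe (chr3:14605676-14605735) went the other way, with 35.6 on replicate 1, not well above background, and 105 on replicate 2, well above it. E2F4 and E2F5 are factors that bind the RB relatives p107 and p130. The E2f4 probe holds 20% G and C and the E2f5 probe 35.0%. Of the 153 probes on the array with at most 20% G and C, 3.27% were detected. The part of base composition in the E2f4 call was not tested. Both probes were marked positive and significant on both arrays, and the E2f5 probe exceeded the highest negative control of each array. No level is given for either gene, since 1 array of the pair was not well above background. E2f6, a repressor that acts without RB proteins, was detected at 2621 and 1911 (2.85 ± 0.24).

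The atypical E2F genes, which repress E2F targets without a DP partner, were both detected. E2f7 had 2 probes, at 63.2 and 58.9 (-2.35 ± 0.01, base 2338) and at 374 and 303 (0.11 ± 0.13, base 5366). The fainter E2f7 reading lay below the highest negative control of replicate 2. E2f8 read 2882 and 2551 (3.12 ± 0.04). The DP partners were detected with every probe. Tfdp1 read 5776 and 5993 (4.24 ± 0.12) and 6635 and 6157 (4.36 ± 0.01), and Tfdp2 269 and 254 (-0.25 ± 0.02) and 302 and 217 (-0.28 ± 0.25). Every DP probe was well above background on both arrays, so no paralogue of this pair was missing.

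The RB family was detected in full. Rb1, which encodes the retinoblastoma protein, was printed 10 times like Ccna1, and it read 5232 and 4648 (3.99 ± 0.04, chr14:73595408-73595467). On replicate 1 its 9 unflagged spots ranged from 4945 to 5458 with a median of 5187, and on replicate 2 its 10 spots ranged from 4145 to 4963 with a median of 4653. All of these spots were well above background, and the ranges of the arrays overlap from 4945 to 4963. Rbl1, which encodes p107, had 2 probes, at 270 and 206 (-0.40 ± 0.19, base 2292) and at 3713 and 2984 (3.42 ± 0.14, base 4310). Rbl2, which encodes p130, the RB relative of resting cells, read 452 and 451 (0.54 ± 0.08).

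**Figure D2:**
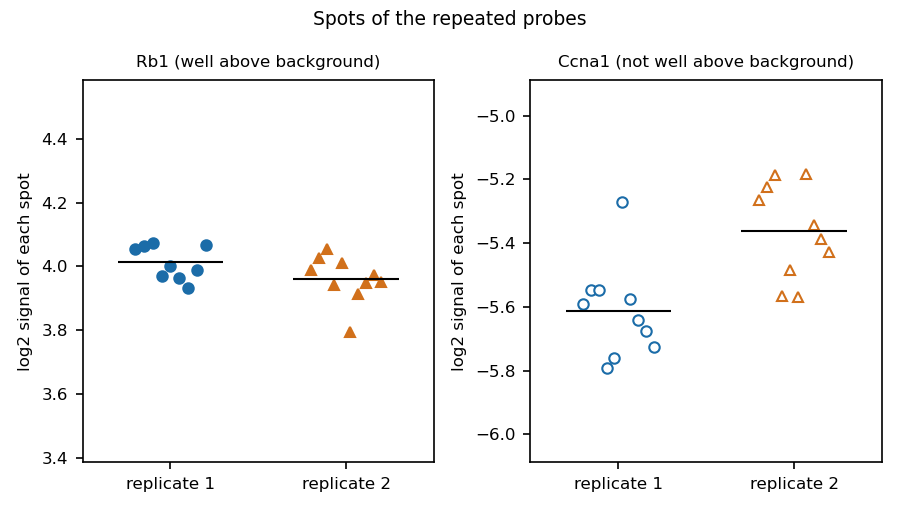
Log2 signal relative to the array's 75th percentile (vertical axis, different range in each panel) of every unflagged spot of the 2 member probes printed 10 times, Rb1 on the left and Ccna1 on the right, by replicate; the line is the mean of the spots. The SD among spots was 0.05 and 0.07 for Rb1 and 0.15 on each array for Ccna1, whose spots are all not well above background (open symbols).

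The transcriptional and CDK-activating members, which act on RNA polymerase II or on other CDKs, were all detected (8 of 8 genes, 14 of 15 probes). Ccnh and Cdk7 form the CDK-activating kinase. Ccnh read 400 and 341 (0.25 ± 0.08). Cdk7 was the other gene whose probes disagreed. Its probe at base 522 (chr13:101486504-101486563) read 802 and 883 (1.44 ± 0.18). The Cdk7 probe at base 3606 (chr13:101470911-101470970) read 13.8 and 16.8, not well above background on either array, though marked positive and significant on both. Its base composition, 45.0% G and C, is close to the array's median of 43.3%.

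Cyclin C and CDK8 belong to the Mediator kinase module. Ccnc read 193 and 222 (-0.59 ± 0.23, base 917) and 160 and 121 (-1.16 ± 0.21, base 1934), with the arrays differing in opposite directions. All 3 probes of Cdk8 were detected, at 690 and 536 (0.97 ± 0.18, base 65), 9236 and 8079 (4.79 ± 0.05, base 2156) and 2053 and 1487 (2.49 ± 0.25, base 2427). Replicate 1 was the higher array for each Cdk8 probe.

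Cyclins T1, T2 and K act with CDK9 or its relatives in transcription elongation. The cyclin T1 gene, Ccnt1, was detected with both probes, at 2881 and 2587 (3.13 ± 0.03) and at 337 and 285 (-0.01 ± 0.09). Ccnt2 read 46.9 and 55.1 (-2.61 ± 0.25), detected but below the highest negative control of replicate 2. Cyclin K, from Ccnk, read 10950 and 8997 (5.0 ± 0.12). Each of the 3 Cdk9 probes was detected, at 1488 and 1620 (2.32 ± 0.17, base 889), 16129 and 14453 (5.62 ± 0.03, base 1610) and 609 and 536 (0.88 ± 0.05, base 3164). Both cyclin T paralogues thus counted as detected.

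Of the remaining CDKs, 2 of 3 were detected. Cdk5, best known as a neuronal kinase, read 360 and 353 (0.20 ± 0.06). Cdk10, a partner of cyclin M, read 1396 and 1172 (2.04 ± 0.09, base 1420). A second Cdk10 probe read 2084 and 1620 (2.56 ± 0.17), but the files place it on chromosome 1, whereas the RefSeq gene lies on chromosome 8, so its assignment is uncertain. Cdk14, a kinase paired with cyclin Y at the membrane, had 3 probes, and none of them was well above background on either array. They start at bases 91, 2382 and 4503 of the transcript. The first read 7.26 and 8.11 and the last 12.4 and 21.4, with the readings of the middle probe between these extremes. The Cdk14 probes hold 35.0% to 40% G and C, near the median of the member probes.

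**Figure D3:**
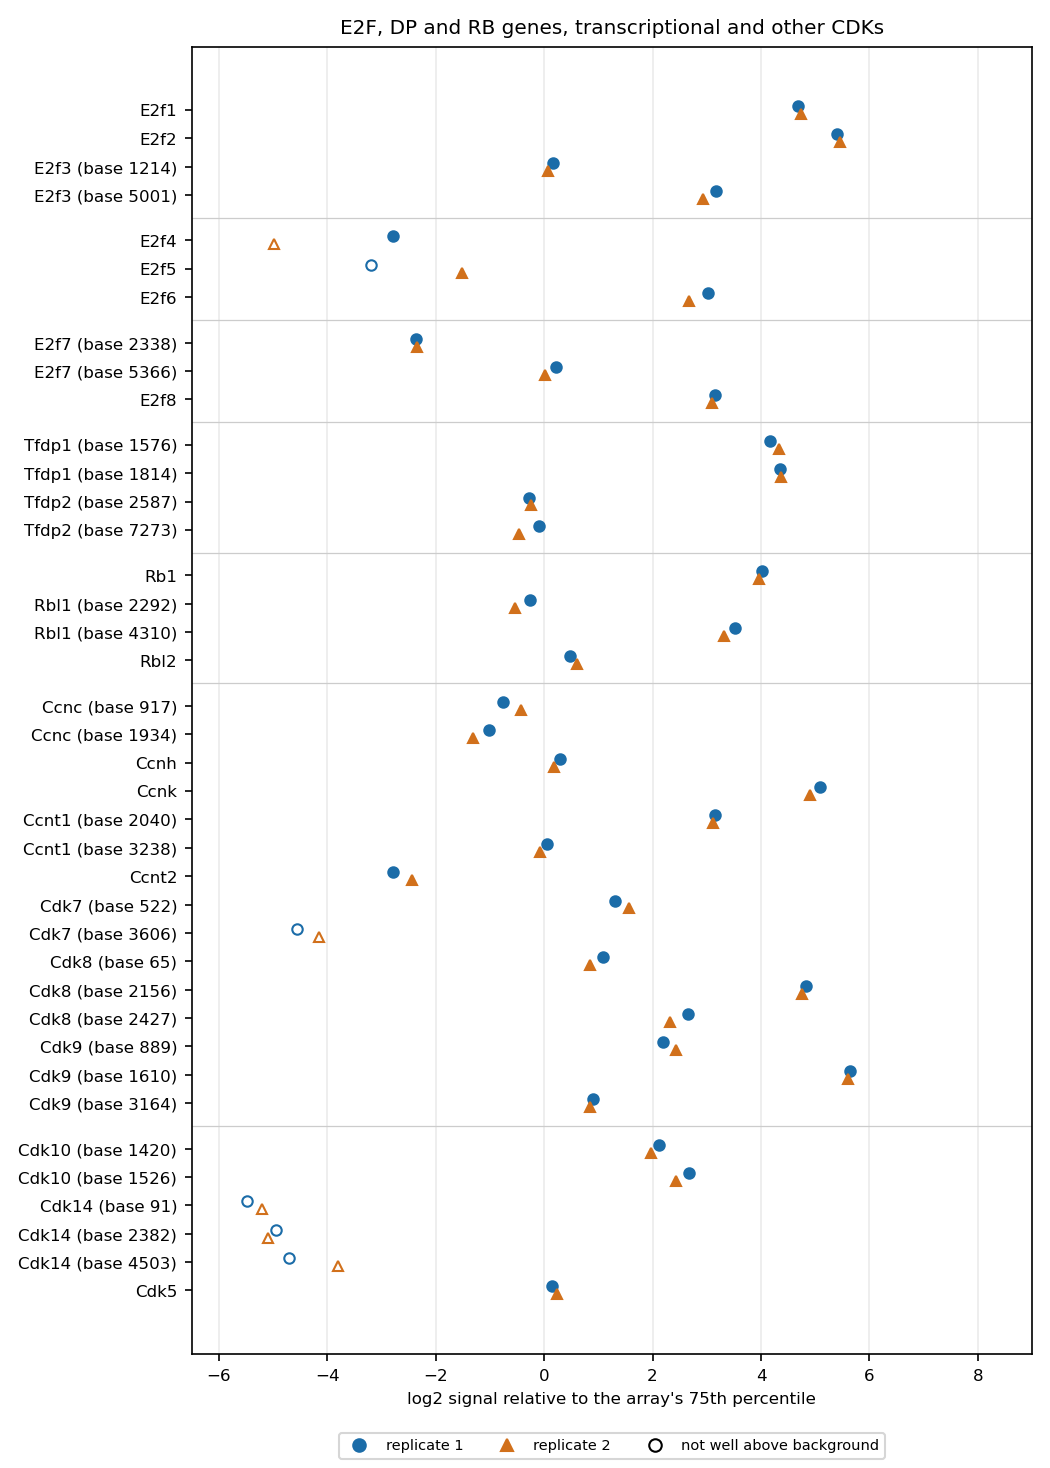
Log2 signal of each probe relative to the array's 75th percentile (horizontal axis), with a circle for replicate 1 and a triangle for replicate 2; the blocks from top to bottom are activating E2F, E2F4 to E2F6, atypical E2F, DP, RB, transcriptional and other CDK genes. Open symbols are not well above background: E2f4 is open on replicate 2 alone, E2f5 on replicate 1 alone, and Cdk14 with all 3 probes on both arrays.

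Over the members as a whole, 18 genes had several probes: 15 were detected with every probe, Cdk1 and Cdk7 with some, and Cdk14 with none. Of the 70 member probes 60 were detected, beside 40.1% of all probes on the array. Member probes had a median of 38.3% G and C against 43.3% over all probes. The median value of the 40 detected members was 3.13, where all detected named genes had a median of 2.14. These use the brightest detected probe of each gene. With the mean over a gene's detected probes, a comparison added after seeing the data, the medians were 2.53 and 1.67. All of these medians describe these probes and carry no test.

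The arrays gave close values for the members. Over the 60 detected member probes the difference of replicate 2 minus replicate 1 ranged from -0.56 to 0.35 on the log2 scale, with a median of -0.05 beside 0.00 over all detected probes. None of the 60 was over 2-fold apart, beside 1.15% of all detected probes, a share at which 0 of 60 is not particular to the members. The median absolute difference was 0.15, beside 0.18 over all. Detected members had a higher median value (3.13, beside 2.14 for all detected named genes), and the spread between the arrays was narrower for bright probes than for dim ones. These summaries were not matched for brightness. Replicate 1 was the higher array for 38 of the 60 (63.3%, beside 50.7% of all detected probes). That split moves with the scaling: it was 86.7% beside 78.4% when each array was scaled to its median, which shifts the median of all probes by -0.23, and 56.7% beside 45.0% when scaled to the 75th percentile of detected probes. The lowest differences were those of Cdc25b and Cdk6 (-0.56 each) and of the Cdk1 probe at base 1111 (-0.49). At the brightness of Cdc25b, 95% of detected probes lay between -0.49 and 0.49, so Cdc25b was just outside that band, while Cdk6 was inside its own (-0.85 to 0.86).

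**Figure D4:**
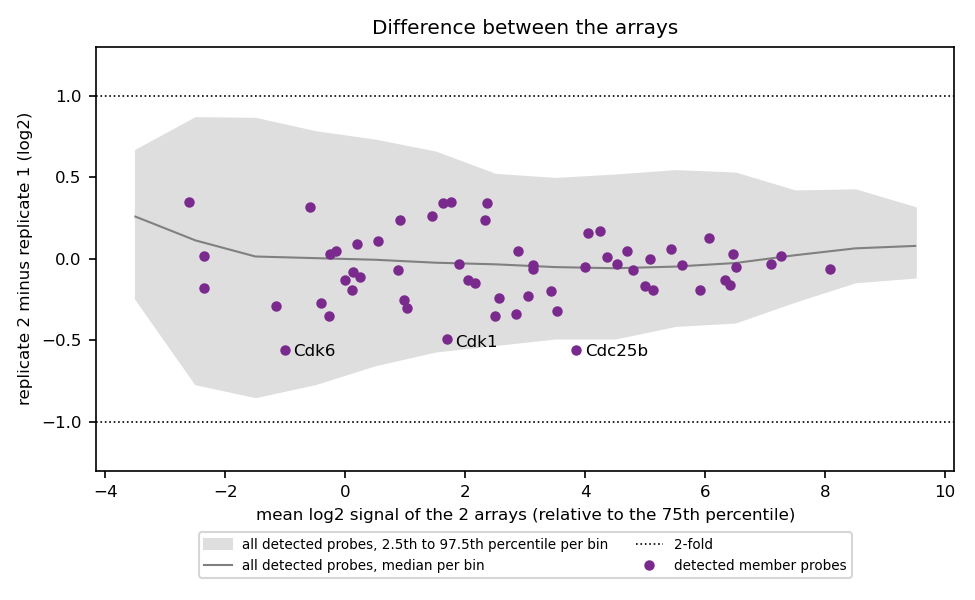
Replicate 2 minus replicate 1 (vertical axis, log2) against the mean log2 signal relative to the 75th percentile (horizontal axis) for the 60 detected member probes (points), over the central 95% (grey band) and median (line) of all detected probes in bins of brightness; dotted lines mark 2-fold. All 60 points lie between -0.56 and 0.35, inside the 2-fold lines, and Cdc25b lies below the band.

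Other genes of the pathway were counted on the same arrays. All 15 E2F target genes of S phase were detected, among them Mcm2, Mcm3 and Mcm4 of the replicative helicase, with a list median of 6.18. All 10 genes of the SCF and APC/C ubiquitin ligases, which destroy cyclins and their inhibitors, were detected, with a median of 5.32. Of the 8 genes for MuvB, MYB and FOXM1 partners of E2F and RB proteins 7 were detected, all but Mybl1. Of 8 CDK inhibitors 6 were detected: Cdkn1a, which encodes p21 and is a target of p53, and Cdkn2b, which encodes p15, were not. The detected inhibitors included Cdkn2a, the locus of p16 and ARF, at 6.35 ± 0.39 and Cdkn1b, which encodes p27, at 1.94 ± 0.07. Cdk5r2, an activator of CDK5, was the 1 undetected gene of 9 CDK partners and activators, and Cdk18 that of 16 other cyclins and CDKs. All these shares stand beside the 51.7% of named genes detected on the array.

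The promoters of the members were searched for 3 motifs known from cell-cycle genes. RefSeq promoters of build GRCm38.p6, running from 250 bases before to 50 after a transcription start, were matched for 34 members (40 promoters). The motifs were the E2F site as TTTCCCGC or TTTGGCGC, the cell-cycle homology region (CHR) as TTTGAA, and the CCAAT box as CCAAT, on both strands, and no 2 matches overlapped in the members' promoters. An E2F match was found in 5 of the 40 promoters (12.5%, beside 1.56% of all 32851 promoters), a CHR match in 9 (22.5%, beside 17.9%) and a CCAAT match in 22 (55.0%, beside 37.4%). CHR and CCAAT matches together were found in 8 promoters (20%, beside 6.95%). These 3 promoters are shown because they hold an E2F match beside the others (E2f3) or CHR and CCAAT matches without one (Ccnb2, Cdk1). In Cdk1 the letters tttcgcgc, a close variant of the searched E2F forms, were not searched and stay in lower case. The 3 promoters were chosen after the matches were seen. All lie on the minus strand and are written 5′ to 3′ along the gene, with every match, on either strand, in capitals.
E2f3, chr13:29986014-29986313: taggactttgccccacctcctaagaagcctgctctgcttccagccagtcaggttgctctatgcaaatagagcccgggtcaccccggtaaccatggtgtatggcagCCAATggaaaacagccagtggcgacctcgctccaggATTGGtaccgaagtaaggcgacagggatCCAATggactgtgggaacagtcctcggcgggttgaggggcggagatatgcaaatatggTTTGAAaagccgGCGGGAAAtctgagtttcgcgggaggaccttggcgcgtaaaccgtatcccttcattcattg
Ccnb2, chr9:70421505-70421804: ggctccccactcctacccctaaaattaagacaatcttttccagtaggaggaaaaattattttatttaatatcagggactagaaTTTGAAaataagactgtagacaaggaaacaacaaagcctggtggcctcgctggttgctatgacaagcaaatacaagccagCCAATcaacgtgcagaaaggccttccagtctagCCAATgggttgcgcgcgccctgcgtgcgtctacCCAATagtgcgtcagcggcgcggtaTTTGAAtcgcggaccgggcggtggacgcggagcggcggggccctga
Cdk1, chr10:69352863-69353162: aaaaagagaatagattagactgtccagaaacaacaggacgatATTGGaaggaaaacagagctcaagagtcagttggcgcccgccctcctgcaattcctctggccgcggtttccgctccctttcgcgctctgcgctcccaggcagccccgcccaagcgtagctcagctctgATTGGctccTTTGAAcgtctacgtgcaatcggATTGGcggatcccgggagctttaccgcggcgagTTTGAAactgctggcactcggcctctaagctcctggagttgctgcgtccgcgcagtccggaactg

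E2F matches were found in promoters of Cdc25a, Cdk2, E2f2, E2f3 and E2f7, which is 5 of the 25 promoters of the G1, G1/S, E2F, DP and RB genes, pooled here as 1 set (20%). Of the 6 S, G2 and M promoters searched, 0 held TTTCCCGC or TTTGGCGC, and other forms of the E2F site were not counted. Of all promoters, 1.56% held an E2F match, 17.9% a CHR match and 37.4% a CCAAT match. At the E2F share, a count of 0 in so few promoters says little about a set. The S, G2 and M genes Ccna2, Cdc25c, Pkmyt1 and Wee1 had no matched promoter and were not searched, and the difference between the sets was not tested. CCAAT boxes were found in all 6 of the latter, including that of the undetected Ccna1, and CHR matches in 3 of them (Ccnb2, Ccnf and Cdk1). In the 25 promoters of the pooled set CHR matches were found in 6 (24.0%), CCAAT boxes in 11 (44.0%) and both in 5 (Cks1b, Skp2, E2f2, E2f3 and E2f8). Of the 9 promoters of transcriptional and other members, 5 held a CCAAT box and 0 an E2F or CHR match. A match is a description of letters and not a site of binding, and a promoter without one lacks only these letters in this window.

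**Figure D5:**
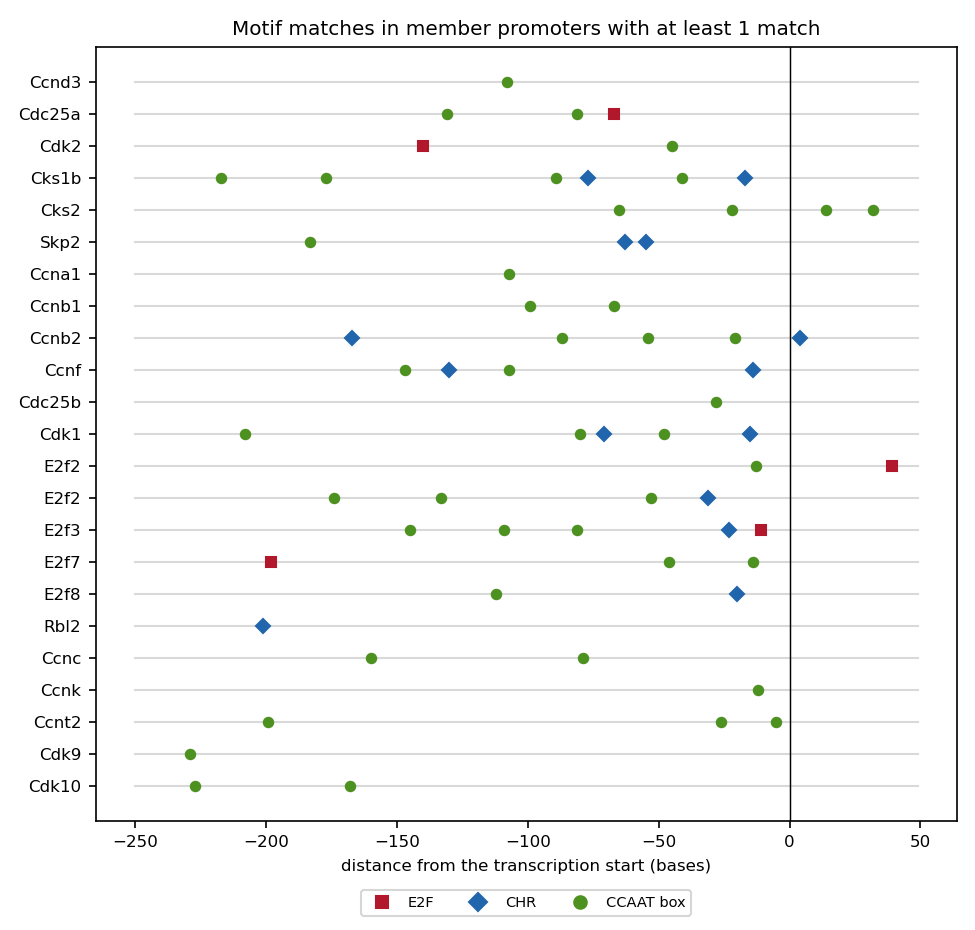
Positions of E2F, CHR and CCAAT matches (symbols) in the members' promoters that hold at least 1 match, as distance in bases from the transcription start (horizontal axis, vertical line at 0); E2f2 appears with 2 promoters. E2F matches (TTTCCCGC or TTTGGCGC only) are found in Cdc25a, Cdk2, E2f2, E2f3 and E2f7. None is found in the Ccna1, Ccnb1, Ccnb2, Ccnf, Cdc25b and Cdk1 promoters, where other forms were not searched.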

How the data were processed

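Scanner files of 2 one-colour (Cy3) arrays were used. Per the file headers, the authors obtained the intensity values with Agilent Feature Extraction 10.5.1.1, which corrected the background and called probes well above it. The authors' deposited log2 values of the same arrays served as an alternative. Their scale and centring are not stated. Averaged per probe, their slope against the scanner values over detected probes was 1.00 and 1.01, and their column medians were 5.18 and 5.18.

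Flagged and control spots were left out. Processed signals were put on the log2 scale, averaged per probe and set relative to the 75th percentile of that array's non-control probes. A probe was detected when at least 50% of its spots were well above background on both arrays. Where a gene has several detected probes, its value comes from the one with the highest mean. Of the members' probes, 65 were matched to the RefSeq gene table (GRCm38.p6) through an accession and 5 through the symbol. Probe coordinates are on mm9, and exon or UTR positions were not analysed here. Promoter sequences are RefSeq's (GRCm38.p6).

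With 1 group of 2 arrays there is no test, and the number of arrays limits the precision. Every member was accounted for, and each detected member is given with its signal on both arrays. Sequences were shown for overlapping probes that disagreed and for 3 promoters. A gene of another list was named where it fell in the smaller class of its list (5 or fewer) or came first in list order. Cdkn2a, Cdkn1b, Itgam's value and the undetected lineage markers named were chosen after their values were seen. The members and lists were chosen with earlier results of these data known. Alternatives changed the detection call, the arrays required, the scaling, the background (normexp, offset 50) and the probe rule, and left out each replicate. Python 3.11.15, R 4.3.3 and limma 3.58.1 were used. The scaling and the 2-fold limit were tested on simulated data, while the detection calls, gene matching and motif search were not.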

Additional observations from a re-analysis of the deposited data

How the results depend on the processing

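The count of 40 detected members was 43 under the weaker call of a positive and significant signal (adding Cdk14, E2f4 and E2f5, beside 67.5% of all named genes). It was 42 when 1 array sufficed (beside 54.3%), and 41 without replicate 1 (beside 52.6%) or replicate 2 (beside 53.4%). It was 38 when all probes of a gene had to be detected (losing Cdk1 and Cdk7, beside 44.6%). When a detected probe also had to exceed the highest negative control of each array, it was 39 (losing Ccnt2, beside 45.8%). Ccnd2, Ccne2 and Ccna1 were not detected under any of these. The 87 detected genes of the other lists became 80 to 101, and 88 without either replicate. Detected and undetected probes stood side by side in 2 members, Cdk1 and Cdk7, also when 1 array sufficed and without either replicate. With a positive and significant signal these members were Cdk1 and Cdk14. With the highest negative control alone as the limit they were 3 (Cdk1, Cdk7 and E2f7), an alternative chosen after seeing the data. The median value of the detected members, 3.13, was -0.38 when scaled to the 75th percentile of detected probes, 7.12 when scaled to the median of all probes, 2.86 after normexp and 2.53 with the mean over a gene's detected probes. It was 3.13 after quantile normalization, 3.16 with the authors' table, and 3.10 to 3.16 without 1 replicate. Normexp moved single members by -0.45 (Ccnb2) to 1.01 (Ccnt2). The count of 0 member probes over 2-fold apart held under every scaling and background setting run, and was 3 with no filter on dim probes (E2f4, E2f5 and Ccnd2, each not well above background on at least 1 array). No paired analysis was possible because the arrays form 1 group.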
